A study of Homo sapiens with 18 samples.

Results

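A short hairpin RNA against LATS1 was compared with a non-targeting hairpin in MCF10A. This is an established line of human breast epithelium, non-tumorigenic and widely used as a model of normal mammary cells. The comparison covers 6 of the 18 arrays of the series. The 3 arrays titled shLATS1B carried the LATS1 hairpin and the 3 titled shNT carried the non-targeting hairpin, and the members were taken by these titles. All 6 samples had also received a control cDNA. Hairpins were introduced by lentivirus at a multiplicity of infection of 5, followed by puromycin at 1.5 µg/ml for 4 days and at least 7 days of recovery. The control plasmid was then transfected transiently, and RNA was collected 5 days later from cells kept in the estrogen-containing medium M5. The hairpin was expressed in a selected cell population from a pLKO lentivirus, and the labels name 1 LATS1 hairpin for this group, so a second hairpin against LATS1 alone was not analysed here. The other 4 groups of 3 arrays carried the non-targeting hairpin with YAP/TAZ cDNA, ESR1 cDNA or both, or hairpins labelled shLATS1+2 with control cDNA. These groups enter here only to place the shLATS1B arrays, and they are called by their labels. Nothing in the labels says that the 3 samples of a group were separate cultures, so the p-values measure the spread between these samples, which may be technical.

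LATS1 is a serine/threonine kinase of the Hippo pathway. It phosphorylates and thereby restrains YAP, encoded by YAP1, and TAZ, encoded by WWTR1, co-activators of transcription which otherwise enter the nucleus and act through TEAD transcription factors, often beside AP-1. In epithelia the pathway is known for linking cell density, polarity and mechanical tension to growth. Interferon, cholesterol synthesis, cell cycle and keratin genes were set aside here. They are not named, but those that belong to a listed family stay in the counts of that family. The description follows the proteins that move solutes across the membrane, those the cell secretes, its receptors, its transcription factors and its metabolic enzymes.

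LATS1 itself (probe set 8130116, chromosome 6) read 8.96, 8.80 and 8.81 in the control arrays and 7.81, 7.61 and 7.57 in the shLATS1B arrays, on the deposited log2 scale. Every shLATS1B array lay below every control array. The fitted log2 change was -1.19 ± 0.078 (SE, 3 against 3 arrays), a 2.29-fold fall (limma, adjusted p = 6.1e-09). Its paralogue LATS2 changed by 0.14 ± 0.063 (adjusted p = 0.14). YAP1 changed by 0.07 ± 0.075 (adjusted p = 0.61) and WWTR1 rose by 0.43 ± 0.089 (adjusted p = 0.0015). The LATS2 value passes the threshold at 0.15 when arrays are weighted by quality (adjusted p = 0.04) and at 0.19 without control replicate 1 (adjusted p = 0.048). In the arrays labelled shLATS1+2, LATS1 read 7.67, 7.76 and 7.85, but LATS2 read 7.84, 7.90 and 7.72 against 7.84, 7.63 and 7.72 in the control arrays, so a lower LATS2 level was not seen there. In the arrays labelled YAP/TAZ cDNA, YAP1 averaged 10.79 against 10.84 in the control arrays and WWTR1 9.44 against 9.57, so neither transfected gene was higher at its probe set. With both cDNAs these means were 10.88 and 9.99. ESR1 averaged 5.52 in the control arrays, 6.47 with ESR1 cDNA, 6.03 with both cDNAs and 6.37 with the LATS1 hairpin.

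Medians of the 6 arrays lay between 5.494 and 5.54, and arrays of a group correlated at r between 0.9966 and 0.9989 across genes. On the first principal component of all 18 arrays, the control arrays lay between -23.0 and -18.1 and the shLATS1B arrays between 16.3 and 18.2. The arrays of the YAP/TAZ and ESR1 cDNA groups lay on the control side, and those of the shLATS1+2 and both-cDNA groups on the other. The labels name no batch, so for the comparison with the control arrays a batch and the hairpin cannot be told apart. Of markers of other cell types, fibroblast genes averaged 5.22 to 5.36 in the control arrays and 5.31 to 5.34 in the shLATS1B arrays, and 0 of 6 were called. Leukocyte genes (4 of 6 measured, 3 of them near background in both groups) averaged 4.78 to 4.81 and 4.72 to 4.79, with 0 called. Of 5 endothelial markers 4 were near background in both groups and 1, PECAM1, rose by 0.55 ± 0.077 (adjusted p = 4.2e-05). Array means over the 5 were 5.09 to 5.14 against 5.15 to 5.23. All 4 adipocyte markers were near background and uncalled. The part of other cell types in the results was not tested. Of 6 measured mammary epithelial markers, 1 was higher and 4 were lower with the LATS1 hairpin (array means 11.1 to 11.3 against 10.7). Of 7 luminal markers 4 were higher, with array means of 7.69 to 7.82 against 8.17 to 8.22. In bulk RNA, a change in the share of cells and a change of RNA per cell cannot be told apart.

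The LATS1 hairpin arrays differed from the control arrays at 4415 of 18404 genes, or 24% (limma, adjusted p under 0.05). Of these 2286 (12.4%) were higher and 2129 (11.6%) lower, and 926 (5.03%) differed by at least 1.5-fold. Which direction held more genes depended on the scaling, with 1903 higher and 2113 lower after centring each array on its median and 2154 and 2248 after quantile normalization. With interferon, cholesterol, cell cycle and keratin genes removed, 17789 genes remained, with 2130 higher and 1997 lower. Rises were the larger in size: outside those themes 151 genes rose and 82 fell by at least 2-fold, and 21 rose and 13 fell by at least 4-fold. The median log2 change over all genes was -0.0059. A total of 45 gene families, together 3578 genes, were examined, of which 553 were higher and 374 lower (25.9% called). The families keep any members that also belong to the set-aside themes. The share called ran from 8.33% to 46.9% across the families, against 24% over all genes, and was above that background in 27 and below it in 18.

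The largest changes outside the set-aside themes came from 12 genes that rose by 2.23 to 4.17 and 12 that fell by 2.11 to 3.46 on the log2 scale. These 24 were chosen among genes whose groups do not overlap, 38.4% of all genes. The 250 bases before the start of those among the first of each direction with an entry in the RefSeq promoter table (build GRCh38.p14) are printed here to show the genes at the centre of the comparison. Capitals mark GGAATG, the core motif of TEAD factors, and TGANTCA, the core motif of AP-1, searched on both strands. The first 3 belong to genes that rose and the last 3 to genes that fell.
AQP3: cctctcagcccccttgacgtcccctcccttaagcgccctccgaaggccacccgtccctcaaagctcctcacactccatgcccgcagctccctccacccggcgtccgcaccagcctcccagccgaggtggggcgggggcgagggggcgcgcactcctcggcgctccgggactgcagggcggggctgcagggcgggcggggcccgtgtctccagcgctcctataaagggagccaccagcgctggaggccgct
TNFAIP2: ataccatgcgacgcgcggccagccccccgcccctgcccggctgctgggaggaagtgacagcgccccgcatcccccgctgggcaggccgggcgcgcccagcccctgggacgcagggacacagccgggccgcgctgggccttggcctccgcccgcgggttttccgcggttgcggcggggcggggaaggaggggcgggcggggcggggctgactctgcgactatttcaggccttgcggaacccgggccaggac
CPA4: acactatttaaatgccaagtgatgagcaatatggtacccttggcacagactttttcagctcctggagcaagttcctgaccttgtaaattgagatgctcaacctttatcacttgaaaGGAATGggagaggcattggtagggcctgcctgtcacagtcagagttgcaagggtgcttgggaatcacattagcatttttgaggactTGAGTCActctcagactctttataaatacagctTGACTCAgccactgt
PNLIPRP3: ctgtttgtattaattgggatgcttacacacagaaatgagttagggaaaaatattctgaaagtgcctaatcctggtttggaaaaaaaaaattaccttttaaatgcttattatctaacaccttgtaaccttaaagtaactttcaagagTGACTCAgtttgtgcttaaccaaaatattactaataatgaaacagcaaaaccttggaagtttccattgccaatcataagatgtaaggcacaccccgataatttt
INSC: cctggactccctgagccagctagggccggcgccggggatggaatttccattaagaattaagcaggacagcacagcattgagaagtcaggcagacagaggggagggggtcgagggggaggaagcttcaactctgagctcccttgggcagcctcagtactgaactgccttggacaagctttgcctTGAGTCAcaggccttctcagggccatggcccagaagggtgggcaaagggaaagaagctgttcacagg
CLIC2: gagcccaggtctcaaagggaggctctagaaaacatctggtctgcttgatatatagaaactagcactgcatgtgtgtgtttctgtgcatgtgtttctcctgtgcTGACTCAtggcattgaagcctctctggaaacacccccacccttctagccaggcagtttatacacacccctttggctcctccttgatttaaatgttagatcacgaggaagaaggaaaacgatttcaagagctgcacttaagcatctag
These windows lie at chr9:33447594-33447843 (minus strand) for AQP3, chr14:103123211-103123460 (plus strand) for TNFAIP2, chr7:130292911-130293160 (plus strand) for CPA4, chr10:116427597-116427846 (plus strand) for PNLIPRP3, chr11:15112174-15112423 (plus strand) for INSC and chrX:155334615-155334864 (minus strand) for CLIC2. CPA4 holds a TEAD match 134 bases before its start and AP-1 matches 48 and 15 bases before it. PNLIPRP3, INSC and CLIC2 each hold 1 AP-1 match, 104, 67 and 147 bases before the start. AQP3 and TNFAIP2 hold these letters nowhere in the window. Over the 14230 genes whose promoter was searched, set-aside themes included, 10% held the TEAD letters and 4.91% the AP-1 letters. The promoters of 1 chromosome were left out of the search. Of 375 promoters of genes at least 1.5-fold higher and outside the set-aside themes, 7.73% held the TEAD letters and 7.47% the AP-1 letters. Of 267 promoters of genes at least 1.5-fold lower and outside those themes, the shares were 11.2% and 5.99%. These matches describe letters in a window and not sites of binding.

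**Figure D1:**
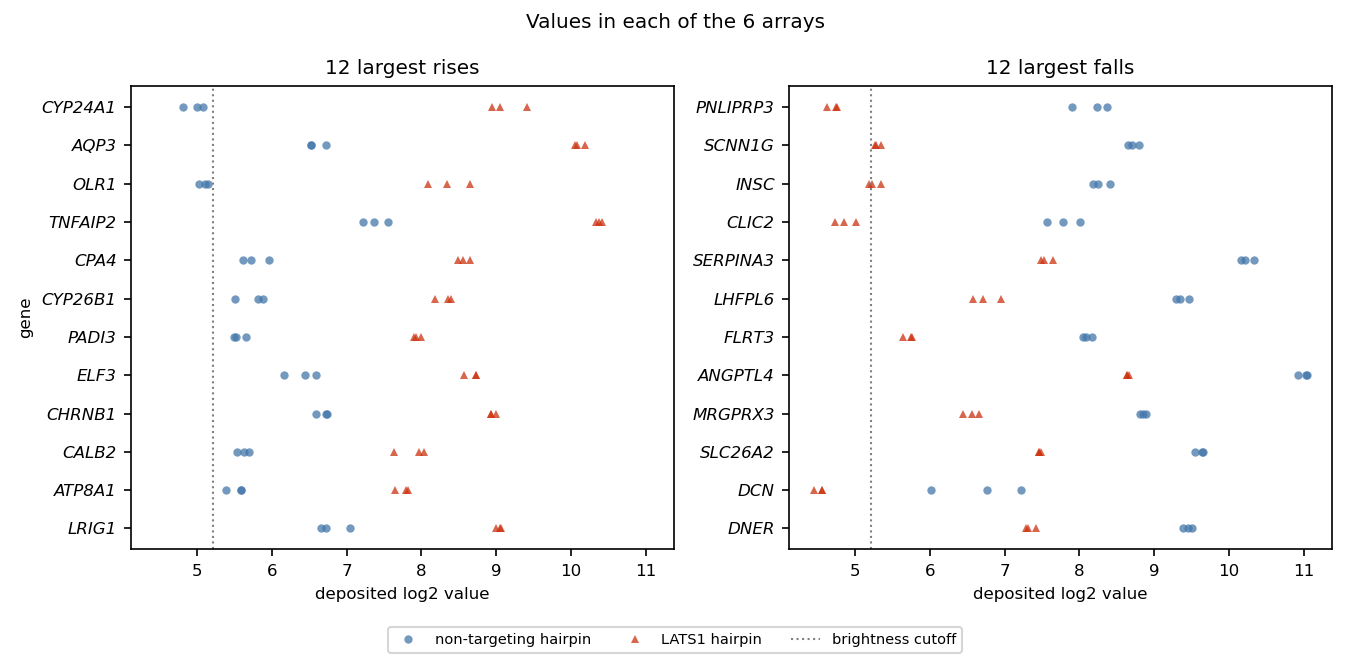
Deposited log2 value (x axis) of the 12 largest rises and the 12 largest falls (y axis, genes) in the 3 control arrays (circles) and the 3 LATS1 hairpin arrays (triangles), with the brightness cutoff of 5.208 dotted. The genes were chosen to have no overlap between the groups, and DCN has the widest spread among the control arrays, from 6.02 to 7.21.

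Water, sodium, chloride and sulfate transport held several of the largest changes, in both directions. AQP3 (chromosome 9), a channel for water and glycerol in epithelial membranes, read 6.73, 6.53 and 6.53 in the control arrays and 10.09, 10.20 and 10.05 with the LATS1 hairpin. The 3 hairpin arrays lay within 0.15 of each other and more than 3 log2 units above the controls. The log2 change was 3.52 ± 0.074, or 11.4-fold (adjusted p = 6.7e-15). It was the only one of 12 measured aquaporins called, and 8 of the 12 were near background in both groups.

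SCNN1G (chromosome 16), the gamma subunit of the epithelial sodium channel ENaC, moved the other way. It read 8.80, 8.65 and 8.70 in the control arrays and 5.28, 5.27 and 5.35 with the hairpin, and so fell by 3.42 ± 0.096 or 10.7-fold (adjusted p = 1.8e-13). The hairpin values sit just above 5.208, the level under which the dimmest 30% of genes lie and which is treated here as near background. SCNN1B, the beta subunit, fell by 0.67 ± 0.074 (adjusted p = 3e-06), from 6.23, 6.05 and 6.0 to 5.43, 5.43 and 5.40. SCNN1A, the alpha subunit, rose by 0.31 ± 0.083 (adjusted p = 0.011), a call that is lost without control replicate 3. The 3 subunits of 1 channel therefore differed in direction.

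CLIC2, a member of the intracellular chloride channel family on chromosome X, fell from 7.57, 8.01 and 7.78 to 4.73, 5.01 and 4.85. The log2 change was -2.92 ± 0.11 (adjusted p = 1.1e-11), and the hairpin arrays were near background, so the 7.59-fold difference is a lower bound. Among 38 chloride and anion channel genes 4 were higher and 6 lower (26.3% called). They include CLIC1, which fell by 0.37 ± 0.04, LRRC8C, a subunit of volume-regulated anion channels, which fell by 1.04 ± 0.069, and the chloride/proton exchanger CLCN6, which rose by 1.10 ± 0.07. Potassium channels were called less often than genes at large, with 4 higher and 5 lower of 85 (10.6% called). Of the 85, 42 were near background in both groups. Among those called, the inward rectifier KCNJ15 fell (-1.24 ± 0.12, adjusted p = 6.8e-07). The lower count is 3 without any of the hairpin replicates 2 and 3 or control replicate 2, and also with each array centred on its median or with these 6 arrays alone, and the higher count is 7 without hairpin replicate 2 and 2 without hairpin replicate 3. Of the store-operated calcium channel genes, ORAI3 rose by 1.19 ± 0.079 (adjusted p = 7.2e-09) and ORAI2 by 0.47 ± 0.07 (adjusted p = 0.00011).

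Solute carriers were called more often than genes at large, 111 of 363 or 30.6%, with 55 higher and 56 lower and a median log2 change of -0.0103. SLC26A2, the sulfate transporter that supplies sulfation of proteoglycans, was among the 12 largest measured falls. It read 9.65, 9.65 and 9.55 in the control arrays and 7.46, 7.46 and 7.48 with the hairpin, and so fell by 2.15 ± 0.071 (4.44-fold, adjusted p = 1.7e-12). SLC4A11, a member of the bicarbonate transporter family, rose from 6.27, 6.32 and 6.17 to 8.21, 8.07 and 8.12 (1.88 ± 0.083, adjusted p = 5.5e-11). Glucose carriers SLC2A12 (1.44 ± 0.086) and SLC2A1 (0.81 ± 0.07), the monocarboxylate carrier family member SLC16A4 (1.43 ± 0.10) and the proton-coupled folate carrier SLC46A1 (1.35 ± 0.07) also rose, each with an adjusted p of at most 1.1e-07. Amino acid carriers split. SLC6A14, which carries neutral and cationic amino acids, rose by 2.04 ± 0.11 from a control mean near background, while the cystine/glutamate exchanger SLC7A11 fell by 0.81 ± 0.041 and the cationic amino acid carrier SLC7A2 by 0.70 ± 0.06.

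ABC transporters, the ATP-driven exporters, had 10 higher and 6 lower of 42 (38.1% called). ABCC4, an exporter of cyclic nucleotides and prostaglandins, fell by 1.09 ± 0.07 (adjusted p = 8.4e-09), and the others named by the rule moved by at most 0.64. Ion pumps had 6 higher and 6 lower of 48. FXYD3, a regulator of the sodium/potassium pump, rose from 10.01, 10.16 and 10.43 to 11.67, 11.62 and 11.52 (1.41 ± 0.10, adjusted p = 3.2e-08). Vacuolar proton pump subunits did not move as a unit: ATP6V0A1 rose by 1.19 ± 0.10 and ATP6V0E2 by 0.68 ± 0.05, while ATP6V1D fell by 0.55 ± 0.12 and ATP6V1H by 0.43 ± 0.08. The lower count of pumps is 3 without hairpin replicate 3 or control replicate 2. ATP8A1, a flippase that moves phospholipids between membrane leaflets, was among the largest rises at 2.23 ± 0.087 (adjusted p = 1.3e-11).

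**Figure D2:**
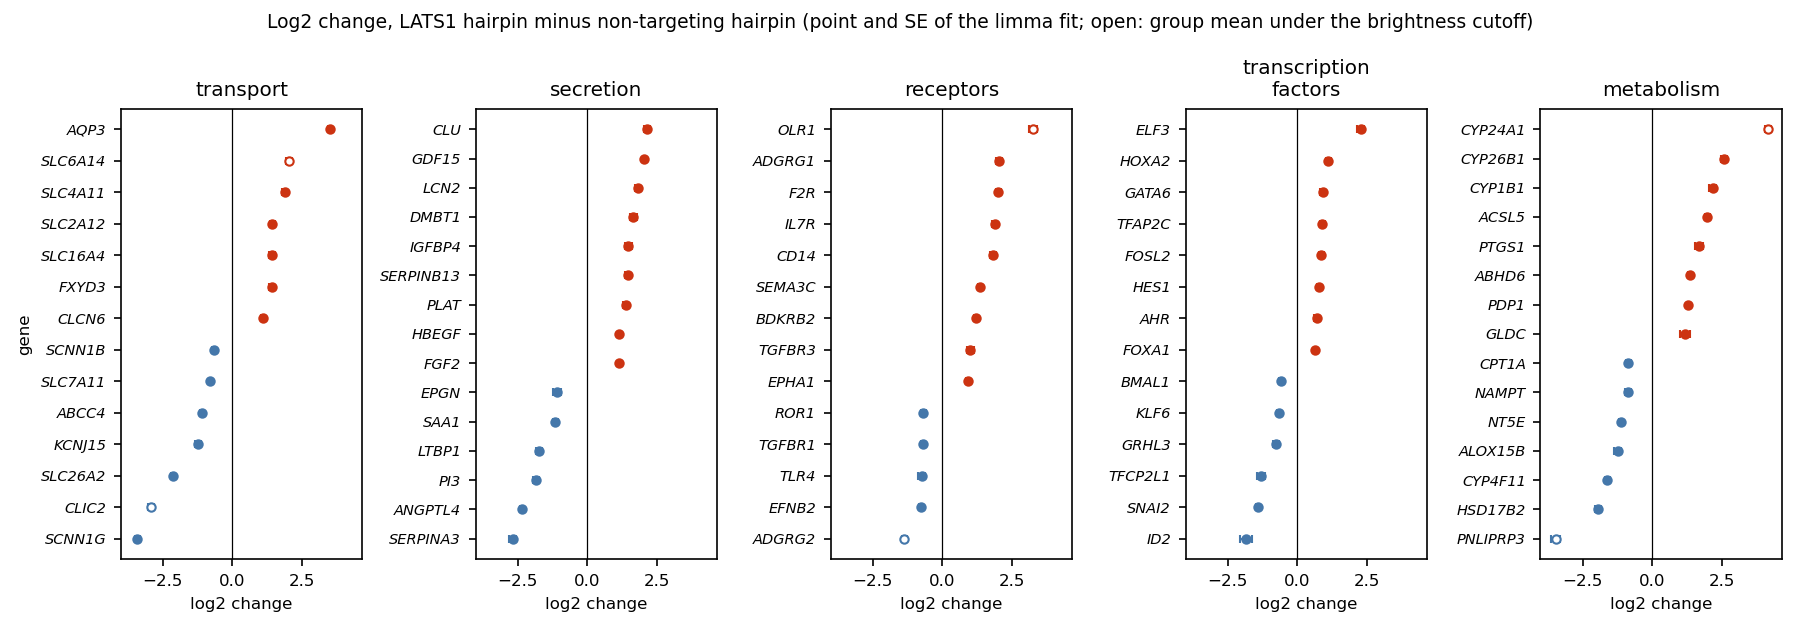
Log2 change with its SE (x axis, LATS1 hairpin minus non-targeting hairpin) of genes chosen from the called members named in the text or by the rule, in 5 panels by role. Open circles have a group mean under the brightness cutoff. Every panel holds genes on both sides of 0, from CYP24A1 at 4.17 to PNLIPRP3 at -3.46.

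Secreted proteins also divided, with protease inhibitors and acute-phase proteins on both sides. SERPINA3, an acute-phase inhibitor of chymotrypsin-like proteases, read 10.17, 10.22 and 10.33 in the control arrays and 7.49, 7.53 and 7.65 with the hairpin (-2.68 ± 0.13, 6.42-fold, adjusted p = 2.2e-10). Serpins were called in 13 of 30 members (43.3%), 7 higher and 6 lower. The squamous serpins SERPINB13 (1.45 ± 0.10), SERPINB3 (1.36 ± 0.14) and SERPINB4 (0.97 ± 0.13) rose. SERPINB3 and SERPINB4 are near-identical neighbours whose probes can share signal. SERPINB5 (maspin) fell by 0.58 ± 0.05 and SERPINB8 by 0.61 ± 0.06.

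Of 77 host defence proteins, 8 were higher and 6 lower (18.2% called), under the background, but 8 rises and 3 falls passed 1.5-fold (3.08% and 1.96% over all genes). Of the 77, 49 were near background in both groups, and 3 belong to the set-aside themes but are kept in these counts. Clusterin (CLU), an extracellular chaperone, rose from 7.45, 7.65 and 7.33 to 9.68, 9.70 and 9.53 (2.16 ± 0.11, adjusted p = 4e-10). LCN2, which binds bacterial siderophores, rose from 6.02, 6.25 and 6.42 to 8.15, 8.01 and 7.96 (1.82 ± 0.084). The mucosal scavenger protein DMBT1 rose by 1.65 ± 0.14 and the chitinase-like protein CHI3L1 by 1.37 ± 0.16. The elastase inhibitor elafin (PI3) fell from 9.89, 9.48 and 9.68 to 7.88, 7.86 and 7.80 (-1.84 ± 0.11, adjusted p = 2e-09). The serum amyloid genes SAA1 (-1.15 ± 0.09) and SAA2 (-1.0 ± 0.06) fell with it, and they are close paralogues whose probes can share signal.

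Proteases of the serine, kallikrein and cathepsin groups had 12 higher and 5 lower of 75 (22.7% called). Both plasminogen activators rose, the tissue type PLAT by 1.37 ± 0.077 (adjusted p = 9.4e-10) and the urokinase type PLAU by 0.79 ± 0.06 (adjusted p = 7.6e-08). The membrane-anchored proteases PRSS8 (prostasin, known to cleave ENaC) and PRSS21 rose by 0.99 ± 0.08 and 0.76 ± 0.04. CPA4, a secreted carboxypeptidase, rose from 5.62, 5.97 and 5.72 to 8.49, 8.66 and 8.56 (2.80 ± 0.12, 6.98-fold, adjusted p = 2.3e-11).

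Growth factors and their binding proteins were called in 33 of 96 members (34.4%), 23 higher and 10 lower. GDF15, a stress-responsive member of the TGF-beta family, read 9.61, 9.60 and 9.65 in the control arrays and 11.64, 11.68 and 11.65 with the hairpin, 4.11-fold higher (2.04 ± 0.041, adjusted p = 5.2e-15). HBEGF, an EGF receptor ligand, rose by 1.15 ± 0.051 and FGF2 by 1.14 ± 0.049, while another EGF family ligand, EPGN, fell by 1.07 ± 0.14. Proteins that hold latent TGF-beta in the matrix moved apart, LTBP1 falling from 10.37, 10.19 and 10.16 to 8.41, 8.55 and 8.57 (-1.73 ± 0.098) and LTBP3 rising by 1.10 ± 0.12. The activin-binding follistatin relative FSTL3 fell by 1.11 ± 0.06. ANGPTL4, a secreted inhibitor of lipoprotein lipase, fell from 11.03, 10.92 and 11.05 to 8.64, 8.66 and 8.63 (-2.36 ± 0.05, 5.12-fold, adjusted p = 6.7e-15). Decorin (DCN), a small matrix proteoglycan, fell by 2.15 ± 0.19 (adjusted p = 2.5e-07), from control values that spread between 6.02 and 7.21 to values near background.

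The vesicle traffic family, which carries these proteins to the surface, had 22 higher and 26 lower of 174 (27.6% called). The lower count is 17 without hairpin replicate 2 and 14 without control replicate 2. The largest rises were the secretory granule GTPase RAB26 at 1.28 ± 0.10, the synaptotagmin SYT8 at 1.22 ± 0.06, RAB3A at 0.87 ± 0.09 and the vesicle SNARE VAMP2 at 0.85 ± 0.09. The largest falls were SEC24A (-0.87 ± 0.07) and SEC24D (-0.52 ± 0.08), cargo adaptors of the COPII coat that leaves the endoplasmic reticulum, the GTPase RAB32 (-0.51 ± 0.15) and the syntaxin-binding proteins STXBP5 (-0.51 ± 0.12) and STXBP4 (-0.43 ± 0.07). RAB32 is not called without hairpin replicate 2, control replicate 2 or control replicate 3.

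At the cell surface, receptors of several classes rose. OLR1, a lectin-like receptor for oxidised lipoprotein on chromosome 12, read 5.02, 5.11 and 5.15 in the control arrays, near background, and 8.65, 8.35 and 8.09 with the hairpin. The 3.27 ± 0.14 difference (adjusted p = 4.3e-11) is thus a lower bound of 9.66-fold. CD14, the co-receptor for lipopolysaccharide, rose from 9.11, 9.02 and 9.01 to 10.79, 10.95 and 10.88 (1.82 ± 0.098, adjusted p = 5.7e-10), whereas its signalling partner TLR4 fell from 7.30, 7.66 and 7.64 to 6.52, 6.99 and 6.88 (-0.73 ± 0.13, adjusted p = 0.00033). TLR6 fell by 0.47 ± 0.08. The endocytic receptor LRP1 rose by 0.88 ± 0.10 and the lysosomal glycoprotein CD68 by 0.90 ± 0.06. CD14 and CD68 are also expressed by leukocytes, whose markers PTPRC, CD3E and MS4A1 were near background in both groups. Of 76 lipoprotein, scavenger and lectin receptors, a list that as drawn also holds TLR4, 9 were higher and 5 lower (18.4% called). Of the 76, 38 were near background in both groups.

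G-protein-coupled receptors were called less often than genes at large, 39 of 245 (15.9%), and 127 of them were near background in both groups. Of those called, 28 were higher and 11 lower. The adhesion receptor ADGRG1 rose from 7.70, 7.33 and 7.49 to 9.51, 9.58 and 9.55 (2.04 ± 0.11, adjusted p = 4e-10). F2R, the thrombin receptor PAR1, rose from 6.07, 5.92 and 5.76 to 7.92, 7.98 and 7.91 (2.02 ± 0.094, adjusted p = 1.1e-10). The bradykinin receptor BDKRB2 rose by 1.23 ± 0.08 and the orphan receptor GPR141 by 1.45 ± 0.10. ADGRG2 fell by 1.36 ± 0.10 to near background. MRGPRX3, which lies outside the list as it was drawn, was among the 12 largest falls at -2.30 ± 0.12 (adjusted p = 3.4e-10).

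Cytokine and TNF receptors had 19 higher and 9 lower of 89 (31.5% called), the latter 14 with array weights. IL7R, the interleukin-7 receptor alpha chain, rose from 6.43, 6.26 and 6.61 to 8.46, 8.26 and 8.22 (1.88 ± 0.093, 3.68-fold, adjusted p = 2.1e-10). Receptors for TGF-beta split, the co-receptor TGFBR3 rising by 1.01 ± 0.11 and the signalling kinase TGFBR1 falling by 0.70 ± 0.06. Receptor tyrosine kinases had 11 higher and 4 lower of 51 (29.4% called), with EPHA1 up by 0.92 ± 0.08, EPHA2 by 0.53 ± 0.05 and ROR1 down by 0.68 ± 0.10. DDR1, a collagen receptor, rose by 0.80 ± 0.07 at its brightest probe set, but its probe sets disagree and their mean gives 0.22 (adjusted p = 0.41). LRIG1, a transmembrane protein that promotes turnover of EGF receptors, rose from 7.05, 6.73 and 6.66 to 9.0, 9.05 and 9.07 (2.23 ± 0.10, adjusted p = 6.7e-11).

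Guidance molecules had 15 higher and 5 lower of 54 (37.0% called), the highest share among the receptor families, with a median of 0.0421. Secreted semaphorins SEMA3C (1.37 ± 0.07) and SEMA3F (0.93 ± 0.08) rose with the membrane-bound SEMA4D (0.82 ± 0.07) and SEMA7A (0.78 ± 0.06). Ephrin ligands divided by member, with EFNA1 rising by 0.84 ± 0.09 and EFNB2 falling by 0.76 ± 0.07, EFNA3 by 0.42 ± 0.06 and EFNB1 by 0.32 ± 0.05. FLRT3, a membrane ligand of the guidance receptors UNC5 and latrophilin, fell from 8.09, 8.17 and 8.04 to 5.76, 5.64 and 5.74 (-2.39 ± 0.086, adjusted p = 4.4e-12). The Notch-binding protein DNER fell by 2.11 ± 0.049 (adjusted p = 2.2e-14).

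Among the transcription factors listed, ELF3 showed the largest measured change. This epithelial ETS factor, on chromosome 1, read 6.16, 6.60 and 6.44 in the control arrays and 8.73, 8.58 and 8.73 with the hairpin (2.28 ± 0.11, 4.85-fold, adjusted p = 2.3e-10). ETS factors had 5 higher (9 with array weights) and 3 lower of 26 (30.8% called), including ETS2, which rose by 0.85 ± 0.09, and ETS1, which fell by 0.39 ± 0.09. SNAI2 (Slug), a repressor of epithelial adhesion genes, fell from 11.95, 12.01 and 11.98 to 10.62, 10.52 and 10.56 (-1.41 ± 0.057, adjusted p = 1.8e-11). In the same list of epithelial regulators, 17 of 82 were higher and 11 lower (34.1% called), the latter 7 without control replicate 2. GATA6 (0.92 ± 0.093), TFAP2C (0.91 ± 0.096) and RUNX2 (0.78 ± 0.08) rose, and the grainyhead-family genes TFCP2L1 (-1.30 ± 0.14) and GRHL3 (-0.76 ± 0.12) fell.

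Of 39 nuclear receptors, 9 (23.1%) were called higher and 0 lower, against 12.4% higher and 11.6% lower over all genes. With array weights 14 were higher. ESR1, the estrogen receptor alpha, rose by 0.85 ± 0.081 (adjusted p = 6.1e-07) from control values of 5.65, 5.55 and 5.37. NR1D2, a clock repressor, rose by 0.61 ± 0.07, the glucocorticoid receptor NR3C1 by 0.50 ± 0.07 and RXRA, the common partner of many nuclear receptors, by 0.43 ± 0.10. The SOX and FOX factors had 12 of 58 higher and 1 lower (22.4% called). FOXA1, which opens chromatin for steroid receptors, rose from 8.26, 8.23 and 8.31 to 8.86, 8.99 and 8.92 (0.65 ± 0.061, adjusted p = 4.3e-07), and SOX7 rose by 0.67 ± 0.07. The lone lower member, FOXD1, is not called without any of the hairpin replicates 1 and 2 or control replicate 1, nor with all probe sets, the replicate block or these 6 arrays alone. Quantile normalization calls 2 members lower. Nuclear receptors had a median of 0.0484 and SOX and FOX factors of 0.0282.

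Basic leucine zipper factors had the highest share called of the 45 families, 23 of 49 (46.9%), 15 higher and 8 lower. The list as drawn counts CEBPZ among its lower members, although CEBPZ is not itself a leucine zipper factor. AP-1 members moved apart: FOSL2 rose by 0.87 ± 0.08 and JUND by 0.68 ± 0.07, while JUN fell by 0.56 ± 0.07 and FOSL1 by 0.44 ± 0.05. The stress factor DDIT3 (CHOP) rose by 0.76 ± 0.14. The KLF, SP and EGR group had 3 higher and 7 lower of 28 (35.7% called). KLF3 rose by 0.72 ± 0.07, KLF6 fell by 0.65 ± 0.07 and EGR1 fell by 0.45 ± 0.063. Of the basic helix-loop-helix factors 10 of 78 were higher and 7 lower (21.8% called), the latter 4 without hairpin replicate 2. ID2, a dominant inhibitor of that class, fell by 1.83 ± 0.21 (adjusted p = 4.2e-06), from 7.52, 7.45 and 6.75 to 5.47, 5.39 and 5.36. AHR, the aryl hydrocarbon receptor, rose by 0.70 ± 0.10, the Notch target HES1 by 0.77 ± 0.06, and the clock activator BMAL1 fell by 0.58 ± 0.06.

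Homeobox factors were called least often of the transcription factor families, 16 of 128 (12.5%). The list as drawn also holds TBX3, a T-box factor, among its lower members. HOXA2 alone among them rose by more than 1.5-fold, from 6.76, 6.86 and 6.86 to 7.99, 7.93 and 7.94 (1.12 ± 0.084, adjusted p = 3e-08). Their lower count of 8 is 3 without hairpin replicate 1, 2 without hairpin replicate 2, 4 without control replicate 2 or with these 6 arrays alone, and 5 with each array centred on its median or with all probe sets. Among 464 zinc finger genes named ZNF, 75 were higher and 23 lower (21.1% called), with a median of 0.0441. The lower count is 14 without hairpin replicate 1, 12 without hairpin replicate 3, 11 without control replicate 2 and 15 without control replicate 3.

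**Figure D3:**
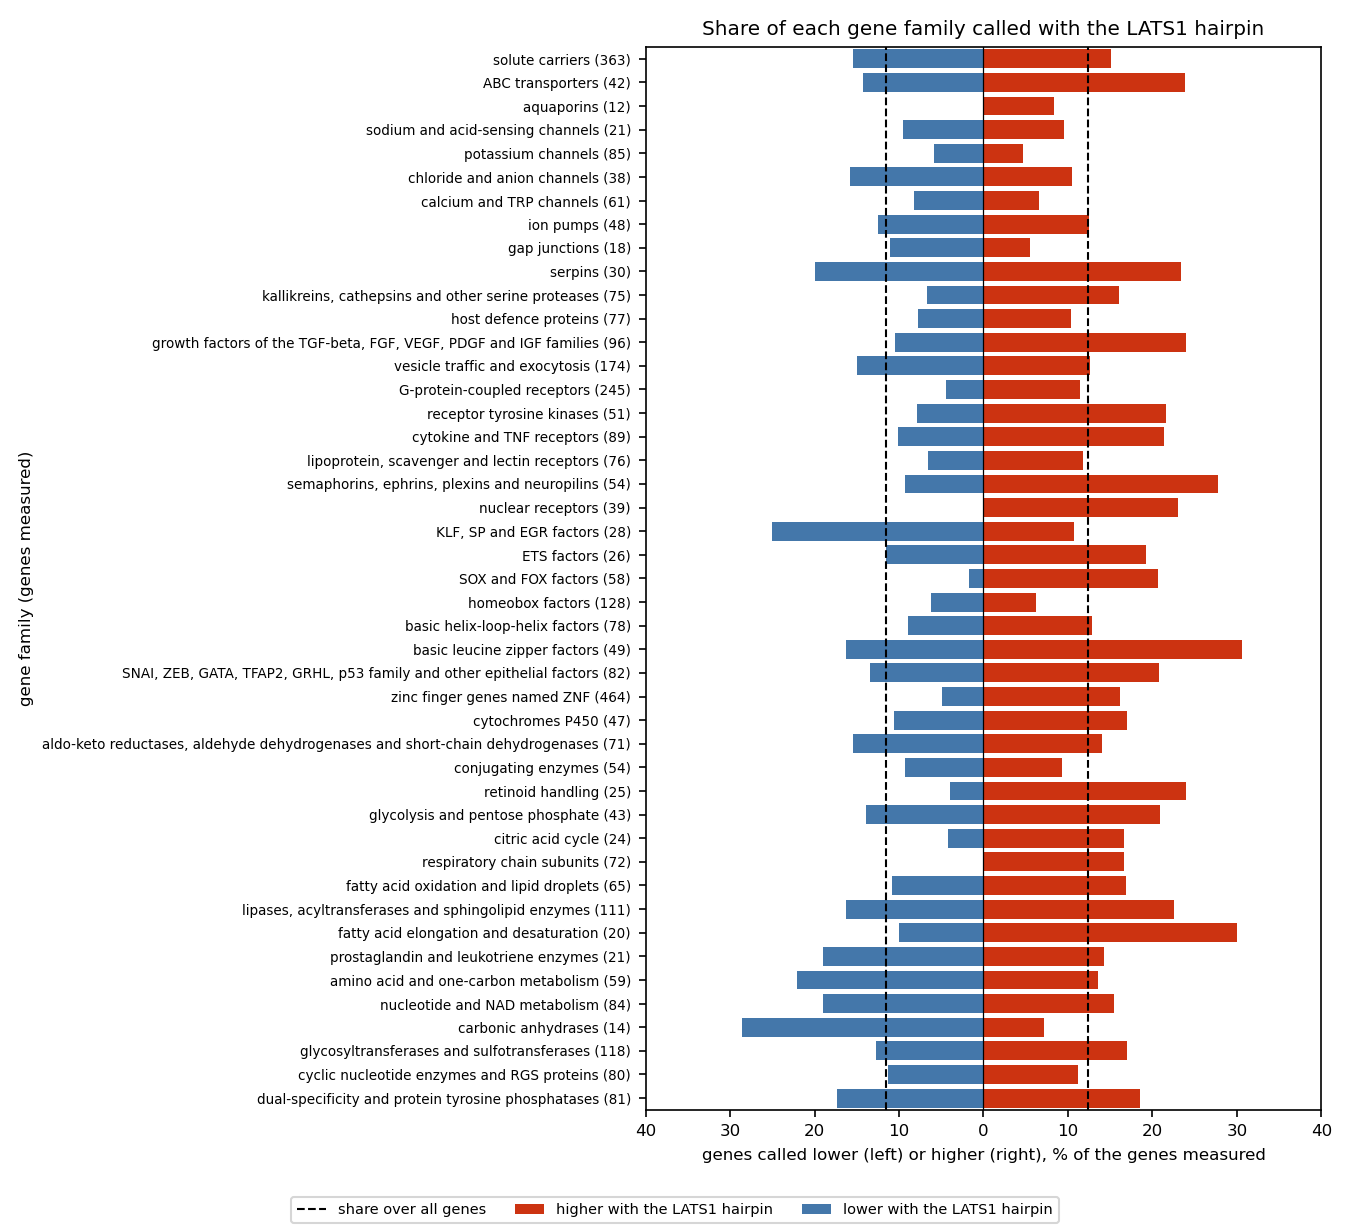
Share of the measured genes of each of 45 families that was called higher (right) or lower (left) with the LATS1 hairpin, in percent (x axis), with the number of genes measured in parentheses (y axis). Dashed lines mark the shares over all genes, 12.4% higher and 11.6% lower. Nuclear receptors and respiratory chain subunits have no lower members.

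Vitamin D, retinoid and xenobiotic enzymes of the cytochrome P450 family included the largest measured rise outside the set-aside themes. CYP24A1 (chromosome 20), which inactivates vitamin D hormone, read 4.81, 5.07 and 5.00 in the control arrays, near background, and 8.94, 9.05 and 9.41 with the hairpin. Its log2 change of 4.17 ± 0.10 (adjusted p = 2.7e-14) is a lower bound of 18.1-fold. The enzymes that make the hormone moved the other way, CYP2R1 falling by 0.72 ± 0.14 and CYP27B1 by 0.28 ± 0.05 (adjusted p = 0.00054). CYP26B1, which clears retinoic acid, rose from 5.51, 5.88 and 5.82 to 8.18, 8.40 and 8.35 (2.58 ± 0.11, 5.97-fold, adjusted p = 2.6e-11).

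Of 25 retinoid genes, 6 were higher, CYP26B1 among them, 1 was lower and 18 were not called. The share called in either direction was a little above the 24% over all genes. Of the 25, 12 were near background in both groups. Whether retinoid genes rose as a set was not tested. DHRS3, which reduces retinal to retinol, rose from 10.67, 10.77 and 10.79 to 11.73, 11.79 and 11.83 (1.05 ± 0.046, adjusted p = 4.5e-11). RDH10 and ALDH1A3, which make retinal and retinoic acid, rose by 0.47 ± 0.04 and 0.47 ± 0.08, and LRAT, which stores retinol as esters, fell by 0.36 ± 0.07. The P450 genes best known as aryl hydrocarbon receptor targets also rose, CYP1B1 by 2.17 ± 0.14 (adjusted p = 3.2e-09) and CYP1A1 by 1.39 ± 0.10 (adjusted p = 1.5e-08). CYP4F11, a fatty acid hydroxylase, fell by 1.62 ± 0.09. P450 genes had 8 higher and 5 lower of 47 (27.7% called), the latter 3 without any of the hairpin replicates 2 and 3 or control replicate 2. HSD17B2, which inactivates estradiol and testosterone, fell from 7.33, 7.62 and 7.49 to 5.78, 5.33 and 5.50 (-1.95 ± 0.10, 3.85-fold, adjusted p = 5.2e-10).

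Lipid enzymes were well represented, with 25 higher and 18 lower of 111 lipases, acyltransferases and sphingolipid enzymes (38.7% called). PNLIPRP3, a gene of the pancreatic lipase family on chromosome 10, fell from 7.91, 8.23 and 8.37 to 4.74, 4.76 and 4.62, near background (-3.46 ± 0.15, adjusted p = 6.1e-11). The monoacylglycerol lipase ABHD6 rose by 1.37 ± 0.06 and PNPLA3 by 1.14 ± 0.10, while the arachidonate-releasing phospholipase PLA2G4A fell by 0.97 ± 0.09. Of fatty acid oxidation and lipid droplet genes 11 of 65 were higher and 7 lower (27.7% called). ACSL5, which attaches fatty acids to coenzyme A, rose from 6.05, 6.04 and 5.76 to 8.05, 7.90 and 7.87 (1.99 ± 0.075, adjusted p = 7.1e-12). CPT1A, the enzyme that admits long-chain fatty acids to mitochondria, fell by 0.85 ± 0.089 (adjusted p = 1.8e-06). In prostaglandin synthesis, PTGS1 rose by 1.68 ± 0.14 and PTGES by 0.51 ± 0.05, while the lipoxygenase ALOX15B fell by 1.24 ± 0.13.

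Respiratory chain subunits were called only as higher, 12 of 72 (16.7%), and none reached 1.5-fold; the largest was NDUFA7 at 0.38 ± 0.08. Fits with array weights, or of these 6 arrays alone, call 2 subunits lower. Of glycolysis and pentose phosphate genes 9 of 43 were higher and 6 lower (34.9% called), and 5 of the rises and 0 of the falls passed 1.5-fold. The aldolase ALDOC rose by 1.16 ± 0.10 and the enolase ENO2 by 0.63 ± 0.10. The pyruvate dehydrogenase phosphatase PDP1 rose from 9.27, 9.45 and 9.32 to 10.65, 10.65 and 10.66 (1.31 ± 0.052, adjusted p = 1.5e-11). PDK2, a kinase that opposes it, rose by 0.77 ± 0.10, and another, PDK4, fell by 0.39 ± 0.10. Cytosolic isocitrate dehydrogenase IDH1 rose by 0.68 ± 0.05, and the aconitase and iron regulator ACO1 fell by 0.65 ± 0.09.

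Amino acid and nucleotide enzymes moved in both directions. Of amino acid and one-carbon genes 8 of 59 were higher and 13 lower (35.6% called), and the higher count is 15 with array weights and 13 with these 6 arrays alone. The serine synthesis enzymes PHGDH (0.78 ± 0.11) and PSPH (0.44 ± 0.07) and the glycine-cleaving GLDC (1.18 ± 0.17) rose. The one-carbon enzymes ALDH1L2 (-1.02 ± 0.11), MTR (-0.70 ± 0.11) and MTHFD1L (-0.62 ± 0.14) fell with AHCY (-0.62 ± 0.06). Of nucleotide and NAD genes 13 of 84 were higher and 16 lower (34.5% called). NT5E (CD73), the ectoenzyme that makes adenosine, fell from 10.41, 10.53 and 10.46 to 9.37, 9.35 and 9.32 (-1.12 ± 0.05, adjusted p = 5.7e-11), and NAMPT, rate-limiting for NAD salvage, fell by 0.86 ± 0.095. Carbonic anhydrases had 1 higher and 4 lower of 14 (35.7% called). The lower ones included CA12 at -0.74 ± 0.07, CA2 at -0.62 ± 0.10 and CA13 at -0.59 ± 0.10. The higher one was CA11 at 0.42 ± 0.07.

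Sugar-modifying and signalling enzymes showed both directions. Glycosyltransferases and sulfotransferases had 20 higher and 15 lower of 118 (29.7% called). EXT1, which polymerises heparan sulfate, rose by 0.76 ± 0.05, and the heparan sulfotransferases HS3ST3B1 and HS3ST3A1 fell by 0.94 ± 0.11 and 0.78 ± 0.08. Phosphatases of the dual-specificity and tyrosine groups had 15 higher and 14 lower of 81 (35.8% called). DUSP1, an inducible phosphatase of stress-activated kinases, fell from 11.42, 11.38 and 11.36 to 10.03, 10.06 and 10.08 (-1.33 ± 0.041, adjusted p = 5.8e-13). DUSP10 fell by 1.20 ± 0.07 and DUSP7 by 0.61 ± 0.06, while DUSP4 rose by 1.07 ± 0.07. RGS2, which shortens G-protein signals, fell by 1.41 ± 0.19 (adjusted p = 2.4e-05).

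Against the arrays labelled shLATS1+2, in which LATS1 was as low (difference -0.10, adjusted p = 0.6) and LATS2 did not differ detectably (0.05, adjusted p = 0.79), the LATS1 hairpin arrays differed at 59 of 18404 genes, or 0.321% (33 or 0.179% higher and 26 or 0.141% lower). The count was 33 without hairpin replicate 2, 35 without hairpin replicate 3 and 37 without shLATS1+2 replicate 3, and 248 with array weights. This comparison lies within 1 side of the first principal component. Of the 24 largest changes described above, 2 were called here: CYP24A1, higher by 0.75 (adjusted p = 0.0015), and CHRNB1, a nicotinic receptor subunit, higher by 0.33 (adjusted p = 0.017). CYP24A1 is not called in a fit of these 6 arrays alone (adjusted p = 0.054), nor is CHRNB1, which also fails without any of the hairpin replicates or without shLATS1+2 replicate 3. The other 22 missed the threshold, which does not show that they are alike.

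PXDN, a peroxidase that cross-links collagen IV in basement membranes, showed the largest difference between the shLATS1B and shLATS1+2 arrays. It read 8.10, 8.27 and 8.31 with the LATS1 hairpin, 7.04, 6.91 and 6.85 in the control arrays and 6.85, 6.73 and 6.55 in the shLATS1+2 arrays. The differences were 1.29 ± 0.076 from the control (adjusted p = 1.5e-09) and 1.52 ± 0.076 from the shLATS1+2 arrays (adjusted p = 1.8e-08). Other group means lay at 6.59 with YAP/TAZ cDNA, 6.47 with ESR1 cDNA and 6.87 with both. No other group therefore reached the LATS1 hairpin values.

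Of 363 solute carriers 2, both amino acid carriers, were called against the shLATS1+2 arrays. SLC6A14 read 6.97, 7.26 and 7.11 with the LATS1 hairpin and 6.25, 6.30 and 5.95 in the shLATS1+2 arrays (0.95 ± 0.11, adjusted p = 0.00026). SLC7A11 read 9.28, 9.22 and 9.29 against 9.71, 9.68 and 9.63 (-0.41 ± 0.041, adjusted p = 6.3e-05). SLC7A2 was not called (0.23, adjusted p = 0.18). TLR4 was lower with the LATS1 hairpin than in the shLATS1+2 arrays by 0.85 ± 0.13 (adjusted p = 0.0043), since the latter read 7.61, 7.58 and 7.75, beside the control arrays. NRG4, an ERBB4 ligand, read 5.20, 5.32 and 5.40 against 5.97, 5.97 and 5.92 in the control arrays and 6.39, 6.27 and 6.25 in the shLATS1+2 arrays (difference -1.0 ± 0.096, adjusted p = 4.6e-05). The lysosomal membrane protein GLMP was higher by 0.65 ± 0.056 and NIPAL4, a magnesium transporter family member of the epidermal barrier, by 0.61 ± 0.093. GPX2, an antioxidant peroxidase, was lower by 0.93 ± 0.13 (adjusted p = 0.0015) and AKR1B10, an aldo-keto reductase, by 1.01 ± 0.15 (adjusted p = 0.0043). Neither of them differed detectably from the control arrays (0.19, adjusted p = 0.34, and -0.04, adjusted p = 0.9), and AKR1B10 is not called in a fit of these 6 arrays alone (adjusted p = 0.072).

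The LATS1 hairpin arrays lay above all 15 other arrays at 220 genes (1.2%) and below them at 131 (0.712%). Of these, 15 above and 11 below were also called against the control, shLATS1+2 and both-cDNA arrays. This set was defined after the values had been seen. For 12 of the 26 the calls against the control and shLATS1+2 arrays held under every alternative that included the gene. Leaving aside 1 of them that belongs to the set-aside themes, these were PXDN, GLMP, NIPAL4 and IL2RG above, and SLC7A11, TLR4, NRG4, GSTM4, PCSK5, TNIP3 and ZNF737 below. IL2RG and ZNF737 had means of 5.10 and 5.10 over the 18 arrays, so the fit with a brightness filter left them out. IL2RG was near background in the control arrays, and ZNF737 in both the control and LATS1 hairpin arrays. PCSK5, a proprotein convertase of the secretory pathway, had a mean of 6.14 with the LATS1 hairpin against 6.94 in the control arrays and 6.95 in the shLATS1+2 arrays. GSTM4, a glutathione transferase, had means of 7.14, 7.66 and 7.80 in the same order.

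Against the arrays that received YAP/TAZ and ESR1 cDNA together, on the same side of the first principal component, 2045 genes (11.1%) differed, 976 (5.3%) higher and 1069 (5.81%) lower with the LATS1 hairpin (4123 with array weights). Of the 12 largest rises 8 were called, and of the 12 largest falls 5. AQP3 (10.22 with both cDNAs), SCNN1G (5.29), SLC26A2 (7.38), CYP26B1 (8.03), ELF3 (8.39) and SERPINA3 (7.60) were among the 11 not called, and these 6 had differences between -0.11 and 0.29. CLIC2 was the clearest exception among the falls, at a mean of 7.38 with both cDNAs against 4.86 with the LATS1 hairpin (-2.52, adjusted p = 9.9e-10). The calcium-binding protein CALB2 (1.52), the TNF-induced gene TNFAIP2 (1.17), LRIG1 (1.15) and PADI3 (1.14), a peptidylarginine deiminase, were higher with the LATS1 hairpin. SLC6A14 was lower than with both cDNAs by 2.45, LCN2 by 1.99 and the tetraspanin TSPAN7 by 1.96, all with adjusted p of at most 3.6e-09. The choline transporter-like SLC44A2 was higher by 1.22 (adjusted p = 1.8e-07) and SLC7A11 lower by 1.34 (adjusted p = 9.7e-12).

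In the groups labelled YAP/TAZ or ESR1 cDNA alone, all 6 arrays lay on the control side of the LATS1 hairpin arrays for each of the 24 largest changes. Distances differed by gene. INSC, an adaptor of spindle orientation, had means of 6.94 with YAP/TAZ and 6.37 with ESR1 cDNA, between 8.28 in the control arrays and 5.25 with the LATS1 hairpin. DCN stood at 5.13 and 5.06. IL7R, outside those 24, did not follow this order: its means were 8.38 with YAP/TAZ cDNA, 8.24 with ESR1 cDNA and 8.60 with both, beside 8.31 with the LATS1 hairpin, and 6.43 in the control arrays.

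**Figure D4:**
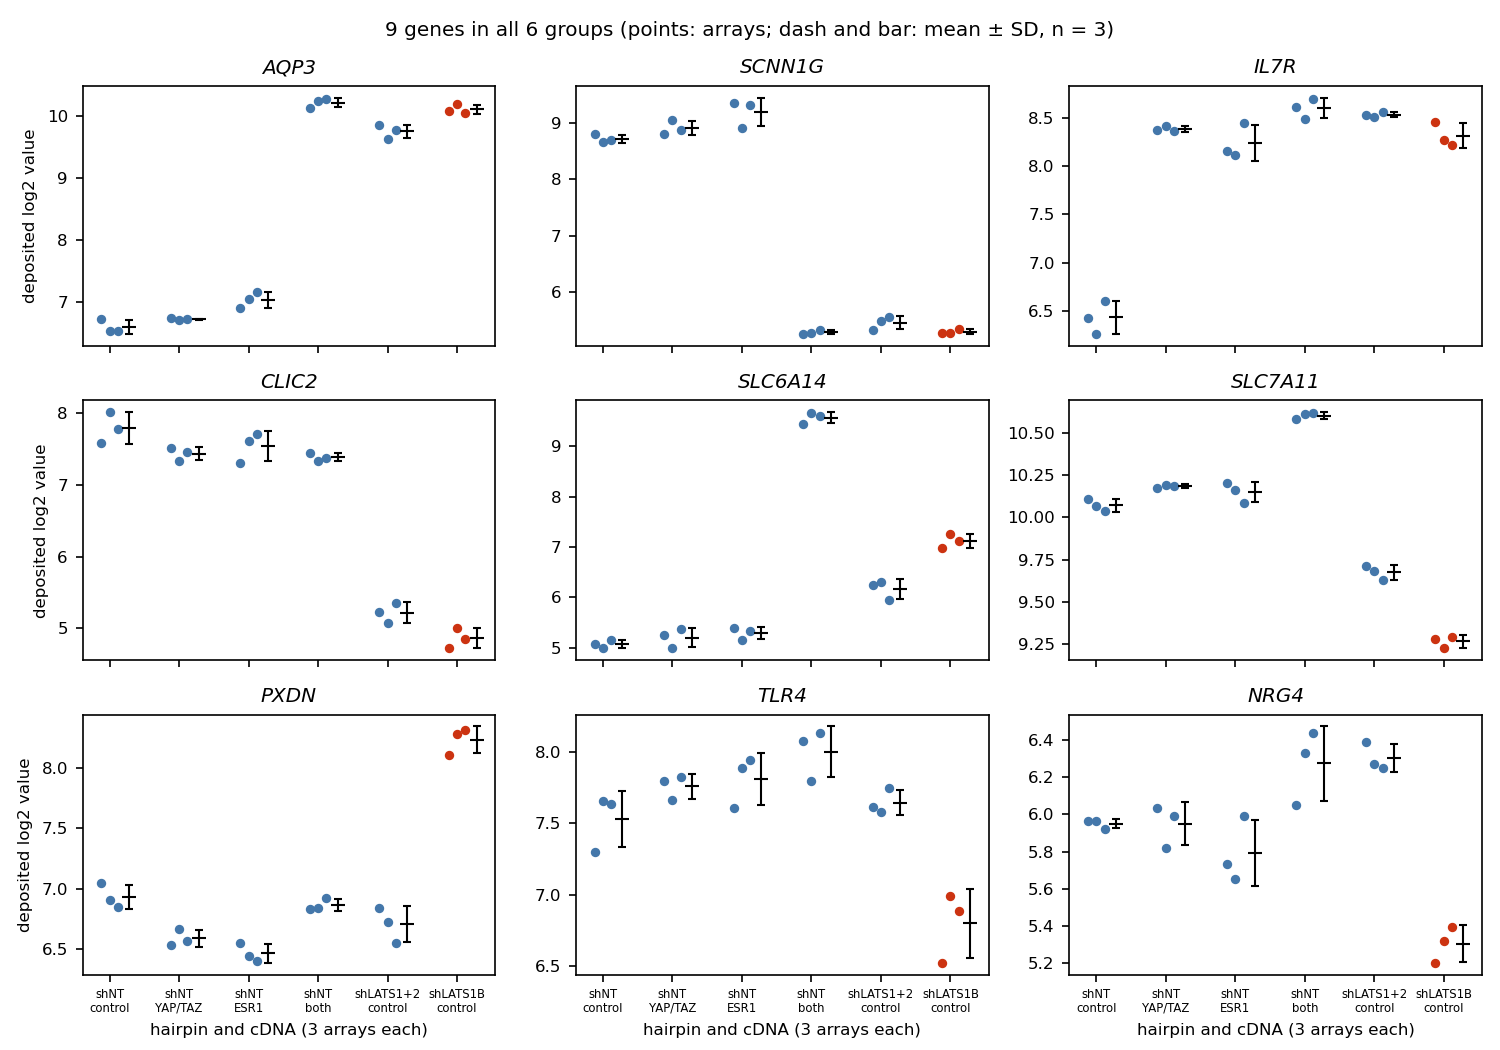
Deposited log2 values (y axis) of 9 genes in the 6 groups of 3 arrays (x axis, hairpin above and cDNA below), with the LATS1 hairpin group in red, the others by their labels, and mean ± SD beside the points (n = 3). AQP3 and SCNN1G divide the groups 3 and 3, IL7R is low in the control arrays alone, and PXDN, TLR4 and NRG4 set the LATS1 hairpin group apart from all 5 others.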

How the data were processed

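Per the labels, total RNA (100 ng a sample) was labelled for Affymetrix whole-transcript arrays. The deposited values are log2 intensities, 1 column per array and 32321 probe sets, and affy, an R package, is named by the submitters' processing notes with no version; the normalization is not given in the sources used here. The number of arrays limits the precision. Of the probe sets, 19158 had 1 gene symbol in the platform annotation, 1388 several and 11775 none. For each of 18404 genes the brightest probe set over the 18 arrays was kept, which decided 637 genes. Symbols and gene types came from RefSeq (GRCh38.p14), and families hold protein-coding genes only.

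All 18 arrays entered 1 limma fit with a mean per group (limma 3.58.1, R 4.3.3; lmFit, contrasts.fit, eBayes; 12 residual degrees of freedom). Tests were two-sided, with Benjamini-Hochberg adjustment over the 18404 genes, and a gene was called at an adjusted p under 0.05. A group mean under 5.208, percentile 30 of gene means, was treated as near background. The fit was tested on simulated data. The members, families and rules were chosen with earlier results of these data known. Genes were named by rule: the targeted and transfected genes, the 12 largest rises and 12 largest falls called without overlap, up to 5 rises and 5 falls per family, and the 6 largest of each sign against the shLATS1+2 and both-cDNA arrays, leaving out interferon, cholesterol, cell cycle and keratin genes. PCSK5 and TNIP3 were named after their values had been seen. Alternatives changed the normalization, probe set rule, brightness filter, variance model, array weights, replicate block, arrays fitted and arrays left out.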

Additional observations from a re-analysis of the deposited data

How the results depend on the processing

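Counts of called genes stayed within 1.5 times the reported value for the LATS1 hairpin against the control arrays under every alternative that kept the threshold. With all arrays it ran from 4016 with each array centred on its median to 5687 with array weights. Leaving out 1 array gave 3588 to 4459 there, 33 to 54 called genes against the shLATS1+2 arrays (59 with all arrays), and 1418 to 1911 against both cDNAs (2045). Array weights raised the last 2 counts to 248 and 4123. Requiring 1.5-fold as well, which by its construction calls fewer genes, left 926, 20 and 292. With the replicate number as a block the counts were 4254, 55 and 1886. Same-numbered hairpin and control arrays correlated at -0.244, 0.0703 and -0.0832 in their deviations from group means. Against the both-cDNA arrays the same-numbered values were 0.294, 0.152 and 0.0162, and against the shLATS1+2 arrays -0.269, 0.00531 and -0.256. Deviations from a mean of 3 arrays are not independent, so these values do not settle whether equal numbers pair the samples. For 396 named genes against the control arrays, 5929 alternative values were computed, of which 204, in 48 genes, no longer passed the threshold, 2 newly passed it and 0 changed direction. Several genes named by rule and called against the shLATS1+2 arrays lost that call somewhere. They were AKR1B10, CHRNB1, CLTRN, CORO1A, CYP24A1, EGR1, EHF, KYNU, LTBP1 and SYT8. Of 13 named against both cDNAs, 0 lost the call. Genes near background have only a lower bound for their fold.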
